A study of Homo sapiens with 6 samples.

Results

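The genes described here were expressed in parent MDA-MB-231 cells and almost without counts in ADRr cells, their Adriamycin-resistant derivative. They were selected on the counts themselves. A member is a protein-coding gene on chromosomes 1 to 22 with at least 20 raw counts in each of 3 parent libraries and at most 3 in each of 3 ADRr libraries. Gene names that begin with COL, CDH, PCDH, ADAM, SEMA or ZNF were left out. The rule found 16 genes among 58735 listed, and among 10734 such genes that had at least 20 counts in every parent library, so 0.149% of the genes that could have met it. The same rule with the groups exchanged found 14 of 10806 genes (0.130%).

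MDA-MB-231 is a human triple-negative breast cancer cell line, that is, one without estrogen receptor, progesterone receptor or HER2 amplification. Parent cells were the line itself. ADRr cells came from the same line after stepwise exposure to rising concentrations of Adriamycin (ADR, doxorubicin), an anthracycline that poisons topoisomerase II, and were then isolated as clones by limiting dilution. RNA-seq was done on 3 libraries per group. A single clone limits the ADRr group as a model of resistance: what the drug selected and what the founding cell already carried cannot be told apart. The sources used here give neither the drug dose at harvest nor whether libraries of a group came from separate cultures, so the p-values below measure the spread between these libraries, which may be technical. The series record speaks of 3 time points, which no sample label names. Had libraries of a group been taken at different times, their SD, SE and p-values would include that difference.

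"Silenced" is used here for a level of RNA only. A gene can lose its transcripts through DNA methylation or histone marks at its promoter, through loss of an activating factor, or through loss of the DNA itself, and counts of RNA do not separate these routes. In a bulk library, fewer cells that express a gene and less RNA per cell cannot be told apart either. Tumor cells commonly carry silenced genes of several kinds, among them death-promoting kinases, adhesion and guidance proteins, membrane transporters and receptors for signals from other cells.

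Total counts were 15983985 to 18272314 per library. Libraries of a group correlated at 0.989 to 0.993 over log2 CPM (counts scaled to the library total) of tested genes and libraries of different groups at 0.935 to 0.937, and no library stood apart from its group. The labelled cell type fitted its markers: VIM, CD44, ZEB1, AXL, FN1 and CAV1, which mark mesenchymal breast cancer cells, had at least 833 counts in every library. ESR1 and PGR, the hormone receptor genes, had at most 1. PTPRC, the pan-leukocyte marker, had at most 2. Of 15 leukocyte markers 11 lay under 1 CPM in each group, and their summed level was 136 to 143 CPM in parent and 126 to 133 CPM in ADRr libraries. The summed level of 20 breast epithelial markers was 1258 to 1427 CPM in parent and 706 to 747 CPM in ADRr libraries. Single markers went both ways: of 13 tested, 6 were called lower and 5 higher by the test described below. EPCAM, for example, had 215, 152 and 266 counts in parent and 492, 439 and 488 in ADRr libraries. Whether the shift in the sum had a part in the results below was not tested.

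All 16 members added up to 1404, 1373 and 1552 raw counts in parent libraries 1 to 3, and to 20, 9 and 14 in ADRr libraries 1 to 3. Thus 4329 counts in parent cells stood against 43 in ADRr cells. In ADRr libraries 1, 2 and 3 a count of 0 was found for 7, 11 and 7 members, and one member, SLC4A4, was at 0 in all of them. The groups do not overlap for any member, because the rule set them apart, so no test is given for the members. All 16 passed the filter on low counts of the fit over all genes, each through its parent counts.

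**Figure D1:**
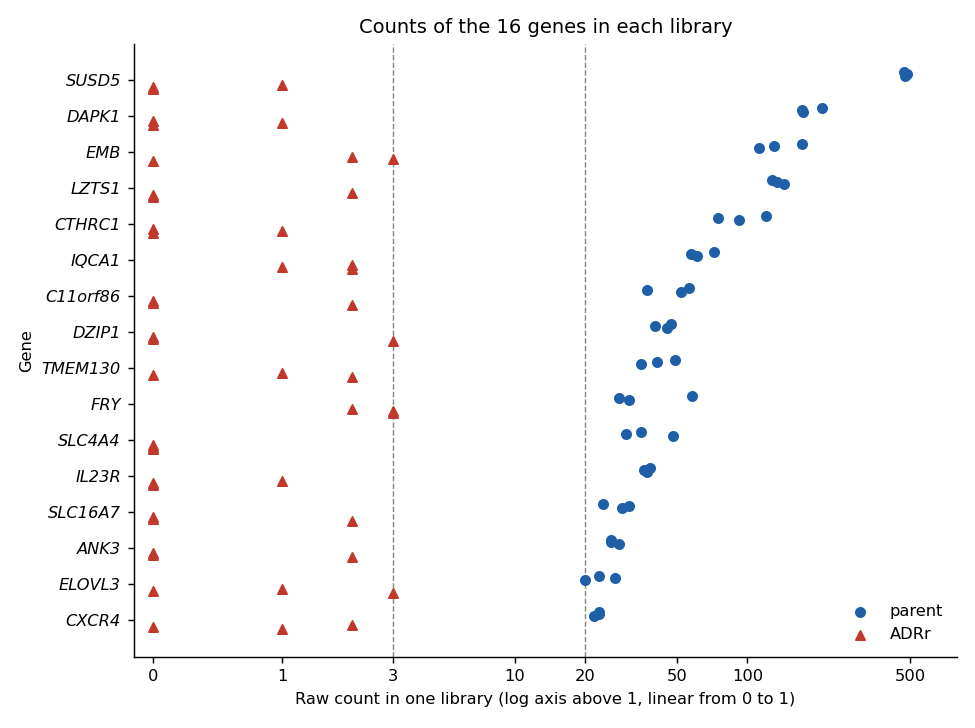
Raw counts of the 16 silenced genes (rows, ordered by parent level) in each library: circles are the 3 parent libraries and triangles the 3 ADRr libraries, with small vertical offsets so that points can be seen. The x axis is logarithmic above 1 and linear from 0 to 1, and the dashed lines are the limits of the rule, 3 and 20 counts. SUSD5 stands highest, with 473 to 487 counts in parent cells, and CXCR4 lowest, with 22 to 23.

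For the parent to ADRr ratios, counts were summed over the 3 libraries of each group and divided by the summed totals of those libraries. Each ratio has an exact 95% interval for the ratio of 2 counts. The interval covers counting error only, and reads of one molecule copied in PCR are not independent. Where all ADRr libraries were at 0, the ratio was set against a floor of 3 counts over the 3 summed ADRr libraries. It is a lower bound with respect to that floor only, without counting error of the parent counts, unlike the lower ends of the intervals.

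The first group of members encodes proteins of the cell surface and the secreted space. SUSD5 (chromosome 3, 33150042 to 33219215, minus strand; positions of all genes are for GRCh38 as the count table gives them) encodes a membrane protein with a sushi domain and a Link domain, the fold by which proteins bind hyaluronan. SUSD5 had 475, 487 and 473 counts in parent libraries and 0, 0 and 1 in ADRr libraries. It had the highest level of all 16, and its ratio was 1483 (95% interval 266 to 58625). CTHRC1 (chromosome 8, 103371515 to 103382997, plus strand) encodes a secreted glycoprotein with a short collagen repeat that favors planar polarity signaling by noncanonical WNT ligands. CTHRC1 had 92, 75 and 120 counts in parent libraries against 0, 1 and 0, a ratio of 297 (52.8 to 11757). Because both genes kept a single ADRr count, their upper bounds are wide and the lower bounds are the firmer part of the estimate.

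CXCR4 and IL23R are receptors for signals from other cells. CXCR4 (chromosome 2, 136114349 to 136118165, minus strand) is the chemokine receptor for CXCL12 and is known for guiding tumor cells to CXCL12-rich organs. It had 22, 23 and 23 counts in parent libraries and 1, 0 and 2 in ADRr libraries, a ratio of 23.4 (7.68 to 116). IL23R (chromosome 1, 67138907 to 67259979, plus strand) is the specific chain of the interleukin-23 receptor, best known from T cells. IL23R had 37, 36 and 38 counts in parent libraries, the most even parent values of the 16 genes with a coefficient of variation of 2.55%, and 0, 0 and 1 in ADRr libraries (ratio 115, 20.2 to 4572). TMEM130 (chromosome 7, 98846488 to 98870771, minus strand) encodes a membrane protein of little known function. It had 35, 41 and 49 counts in parent and 2, 0 and 1 in ADRr libraries, a ratio of 43.1 (14.4 to 212).

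The second group moves small molecules or makes lipids. SLC16A7 (chromosome 12, 59596067 to 59789855, plus strand) encodes MCT2, a high-affinity carrier of pyruvate and lactate, and EMB (chromosome 5, 50396192 to 50443248, minus strand) encodes embigin, an immunoglobulin-like chaperone that takes MCT2 to the cell surface. EMB had 112, 130 and 172 counts in parent libraries and 0, 3 and 2 in ADRr libraries, a ratio of 85.6 (36.4 to 265). SLC16A7 had 29, 31 and 24 counts against 2, 0 and 0, a ratio of 43.4 (11.6 to 364). Thus a carrier and its known chaperone met the rule together, although they lie on different chromosomes.

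SLC4A4 (chromosome 4, 71062667 to 71572087, plus strand) encodes the sodium bicarbonate cotransporter NBCe1, which raises intracellular pH. SLC4A4 had 48, 30 and 35 counts in parent libraries and 0 in every ADRr library. Against the floor its level was at least 38.9-fold higher in parent cells, counting error of the parent counts left aside. ELOVL3 (chromosome 10, 102226328 to 102229589, plus strand) encodes an elongase of saturated and monounsaturated very long chain fatty acids. It had 20, 27 and 23 counts in parent and 3, 0 and 1 in ADRr libraries, a ratio of 18.1 (6.76 to 68.2), and it lies at the edge of the rule on both sides.

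The third group contains a death kinase, putative tumor suppressors and proteins of the cytoskeleton and cilium. DAPK1 (chromosome 9, 87497228 to 87708633, plus strand) is a calmodulin-regulated kinase that promotes apoptosis and autophagy, and its promoter is a well-known target of methylation in carcinomas. DAPK1 had 174, 171 and 209 counts in parent libraries and 0, 1 and 0 in ADRr libraries, a ratio of 573 (102 to 22658). LZTS1 (chromosome 8, 20246165 to 20303963, minus strand) is a leucine zipper protein of the cell cycle that is lost or methylated in several tumor types. LZTS1 had 143, 134 and 127 counts in parent libraries against 0, 0 and 2, a ratio of 209 (57.4 to 1730). After SUSD5, these genes and EMB had the highest parent counts.

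FRY (chromosome 13, 31846713 to 32299122, plus strand) is a microtubule-binding scaffold of the NDR kinases. FRY had 31, 28 and 58 counts in parent libraries, the least even of the 16 with a coefficient of variation of 37.1%, and 3, 3 and 2 in ADRr libraries. Its ratio of 15.1 (7.42 to 35.8) was the smallest. ANK3 (chromosome 10, 60026298 to 60733490, minus strand) encodes ankyrin-G, which ties membrane proteins to spectrin. It had 28, 26 and 26 counts against 2, 0 and 0, a ratio of 41.3 (11.1 to 347).

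DZIP1 and IQCA1 are genes of the cilium. DZIP1 (chromosome 13, 95578202 to 95644703, minus strand) acts at the ciliary base and in hedgehog signaling, with 45, 40 and 47 counts in parent libraries and 3, 0 and 0 in ADRr libraries (ratio 45.5, 15.2 to 223). IQCA1 (chromosome 2, 236324147 to 236507542, minus strand) encodes an IQ motif and AAA domain protein of the ciliary dynein regulatory complex, with 61, 57 and 72 counts against 2, 1 and 2 (ratio 39.3, 16.5 to 122). IQCA1 and FRY were the only members with a count in every ADRr library. C11orf86 (chromosome 11, 66975277 to 66977004, plus strand) encodes an uncharacterized protein and had 52, 37 and 56 counts in parent and 2, 0 and 0 in ADRr libraries, a ratio of 74.9 (20.4 to 625).

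**Figure D2:**
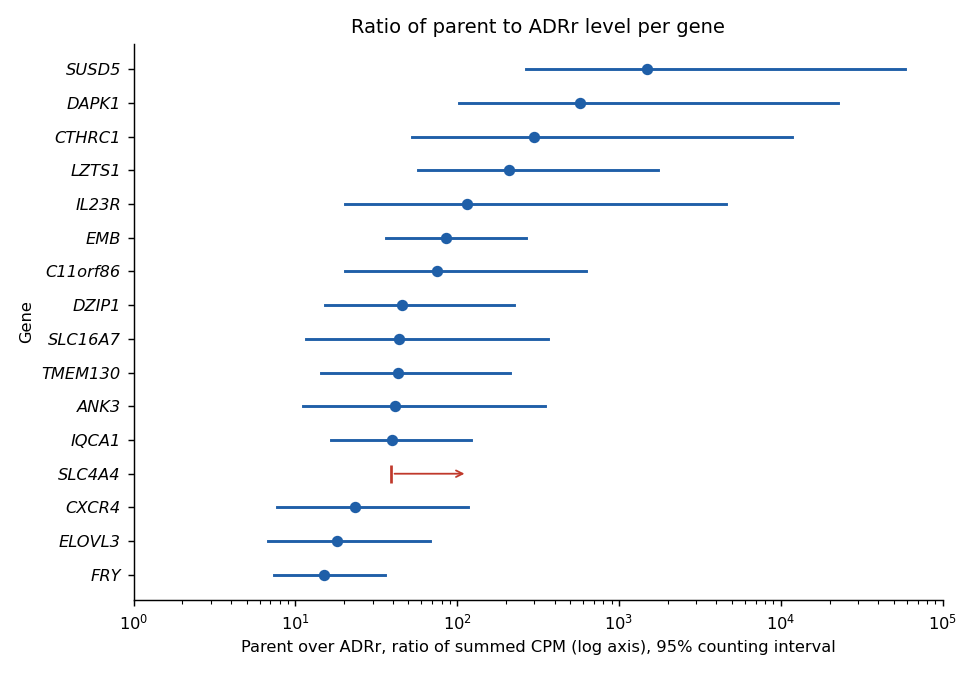
Ratio of the parent to the ADRr level of each silenced gene (x axis, logarithmic). A level is the summed count of 3 libraries over their summed totals, which the axis calls summed CPM. Points are ratios and lines their exact 95% counting intervals. The arrow marks SLC4A4, with a lower bound of 38.9 against the floor of 3 ADRr counts, without counting error of the parent counts. The lowest lower end of an interval is 6.76, for ELOVL3.

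Per length of transcript, the members were low in parent cells. FPKM (fragments scaled to transcript length and to mapped library size) averaged 5.62 ± 0.382 (SD, n = 3) for SUSD5, 3.14 ± 0.576 for CTHRC1 and 2.38 ± 0.391 for C11orf86. EMB at 1.53 ± 0.280 and LZTS1 at 1.39 ± 0.133 differed by less than the spread between libraries. The lowest was ANK3 at 0.0612 ± 0.00428. The median of the 16 was 0.643 FPKM beside 7.25 FPKM over the 10734 expressed genes, and all 16 lay below the latter. Counted by level, 10 of the 511 expressed genes with 20 to 50 normalised counts in parent cells met the rule (1.96%), against 2 of 667 with 50 to 100, 3 of 977 with 100 to 200, 1 of 2227 with 200 to 500 and 0 of 6352 with 500 or more. These shares describe where the rule finds genes. A gene near 20 counts meets it with a smaller fold than a gene near 500.

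**Figure D3:**
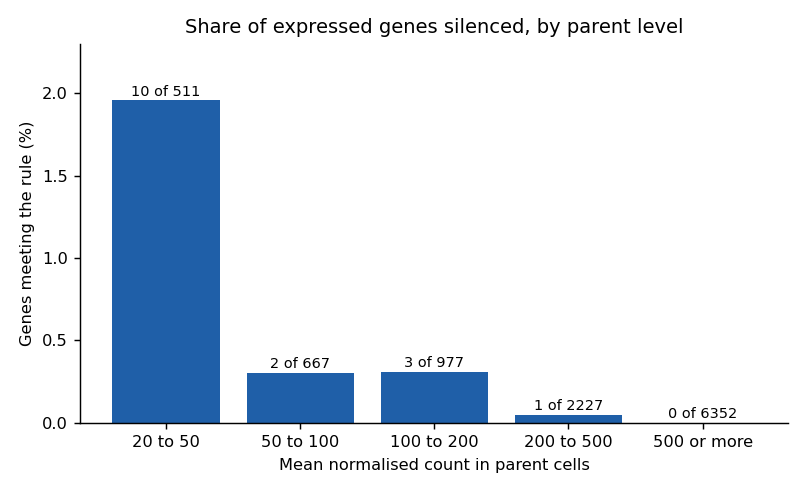
Share of expressed genes that met the rule (y axis, percent), by mean normalised count in the 3 parent libraries (x axis). Bars start at 0 and the numbers above them are genes meeting the rule of all expressed genes in the bin. The share was 1.96% in the lowest bin and 0 in the highest.

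Values close to the limits show how sharp the rule is, and they carry no test. Just outside on the ADRr side lay DIO2, the thyroid hormone deiodinase, with 363, 374 and 334 counts in parent libraries and 4, 3 and 2 in ADRr libraries. HAS2, a hyaluronan synthase, had 51, 45 and 40 against 6, 2 and 6. COCH had 59, 41 and 51 against 4, 1 and 2. Just outside on the parent side lay KLF17, with 18, 23 and 26 counts against 0, 1 and 1. Just inside lay ELOVL3 and CXCR4, with lowest parent counts of 20 and 22.

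The start sites of the members differ in sequence. RefSeq promoter windows (GRCh38.p14, 250 bases before to 50 after the start) were matched by symbol for 10 of the 16 genes. None was matched for EMB, LZTS1, CTHRC1, IQCA1, C11orf86 or IL23R. With 62.5% of members matched, a comparison of CpG content between the members and other genes is void. Single windows can be described. The count of the dinucleotide CG (CpG, the site of DNA methylation, the same on both strands) relative to that from base composition was 0.999 in the window of TMEM130, 0.956 for ELOVL3, 0.914 for SUSD5, 0.889 for DAPK1, 0.877 for DZIP1, 0.864 for CXCR4, 0.754 for FRY and 0.721 for ANK3. It was 0.0974 for SLC16A7 and 0.0848 for SLC4A4. Thus both CpG-dense and CpG-poor start sites were found among silenced genes. The RefSeq start used for FRY lies 185061 bases, and that for SLC16A7 93303 bases, from the gene start in the count table, so these windows belong to other transcripts than the longest.

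The bases before the RefSeq start are shown for 4 members, those whose 250 bases lie outside the gene as the count table gives it, because they run from CpG-dense to without CpG. CpG is in capitals, and each sequence reads 5′ to 3′ on the strand of the gene. They are ELOVL3 at chr10:102226049-102226298 (plus strand, 21 CpG), DZIP1 at chr13:95644707-95644956 (minus strand, 18 CpG), ANK3 at chr10:60733529-60733778 (minus strand, 14 CpG) and SLC4A4 at chr4:71062410-71062659 (plus strand, 0 CpG).
ELOVL3: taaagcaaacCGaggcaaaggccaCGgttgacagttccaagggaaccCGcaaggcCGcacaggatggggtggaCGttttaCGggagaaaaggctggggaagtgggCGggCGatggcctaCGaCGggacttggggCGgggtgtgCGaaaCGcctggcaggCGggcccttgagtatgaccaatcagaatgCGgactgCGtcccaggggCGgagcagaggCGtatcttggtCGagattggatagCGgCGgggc
DZIP1: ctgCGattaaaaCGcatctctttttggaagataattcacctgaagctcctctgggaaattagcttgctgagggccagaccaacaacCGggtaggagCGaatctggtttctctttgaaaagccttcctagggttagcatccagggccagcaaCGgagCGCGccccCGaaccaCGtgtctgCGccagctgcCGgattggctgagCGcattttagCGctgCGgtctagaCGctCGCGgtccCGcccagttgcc
ANK3: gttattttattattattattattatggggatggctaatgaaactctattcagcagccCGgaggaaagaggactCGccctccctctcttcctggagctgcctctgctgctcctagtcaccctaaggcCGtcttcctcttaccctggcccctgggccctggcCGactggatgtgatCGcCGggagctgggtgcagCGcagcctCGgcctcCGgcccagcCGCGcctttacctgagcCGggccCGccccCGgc
SLC4A4: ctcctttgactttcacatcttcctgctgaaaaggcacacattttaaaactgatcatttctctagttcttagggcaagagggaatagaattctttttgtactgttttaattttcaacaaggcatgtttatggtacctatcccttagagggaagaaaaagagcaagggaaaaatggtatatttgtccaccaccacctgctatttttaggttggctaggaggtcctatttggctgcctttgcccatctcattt
Of 8556 other expressed genes with such a window, 99.3% had at least 1 CpG in these 250 bases, with a median of 22 and quartiles of 15 and 29. Hence SLC4A4 was 1 of few genes without any, while ELOVL3 and DZIP1 lay between the quartiles and ANK3 just below the lower one. No methylation was measured here.

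The members were scattered over 12 chromosomes. Chromosomes 2, 8, 10 and 13 held a pair each, and the 2 genes of a pair lay 41.5 Mb (ANK3 and ELOVL3) to 100.2 Mb (IQCA1 and CXCR4) apart. Gene bodies were long, with a median span of 67.8 kb against 34.1 kb over expressed genes, and 11 of 16 exceeded the latter. The counting is not stated to use strand, so reads of an overlapping gene on the other strand could be shared. Overlapping genes held counts only at FRY, where AC002525.1 had 3, 1 and 6 in parent libraries and 0 in ADRr libraries.

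Whether the genes beside a member fell too was asked with genes that the rule did not use. Over all 15242 tested genes, 29.6% were called lower and 29.2% higher in ADRr cells by edgeR's quasi-likelihood test, at a Benjamini-Hochberg adjusted p up to 0.05 with the level changed at least 1.2-fold. Over the 12610 protein-coding ones these shares were 32.1% and 30.2%. Of the 32 nearest tested genes, one on each side of each member, 16 were called lower (50%) and 8 higher (25%). Their median log2 fold change (ADRr over parent, on the log2 scale of normalised counts, here and below) was -0.23, beside -0.0061 for all tested genes. When a log2 change of 1.2 or more in size was asked for, 3 of the 32 were called lower beside 6.38% of all tested genes. No set test was made, and the 2 neighbors of a member share a region, so nothing particular to the neighbors is read from these shares.

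The nearest tested neighbors had RNA in ADRr cells, in part because only genes that passed the filter on low counts could be neighbors. All 32 had counts in every ADRr library, with a median of 804 normalised counts and a lowest mean of 9.98 (DNAJC3-DT). They lay a median of 73.6 kb from the member's body, and up to 5568 kb from it beside EMB. Whether DNA was lost between them was not tested.

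SYT12, which encodes a synaptotagmin and lies 29.8 kb from C11orf86, fell the most of the neighbors. It had 389, 375 and 388 counts in parent libraries and 28, 13 and 25 in ADRr libraries, a log2 fold change of -4.20 ± 0.17 (SE; adjusted p 7.79e-16 by edgeR). PC, pyruvate carboxylase, on the other side of C11orf86, changed by -1.05 ± 0.06 (edgeR adjusted p 2.27e-12). C11orf86 thus lay between neighbors that were both called lower, and the same held for FRY and SLC4A4.

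ACKR3, which lies 60.2 kb from IQCA1, encodes the atypical receptor for CXCL12, the ligand of CXCR4. It had 286, 231 and 240 counts in parent libraries and 93, 60 and 70 in ADRr libraries (log2 fold change -1.84 ± 0.15, edgeR adjusted p 3.28e-10). FZD6, 38.6 kb from CTHRC1, encodes a Frizzled receptor of the planar polarity pathway in which CTHRC1 acts. It had 2028, 1933 and 1993 counts against 896, 750 and 876 (-1.32 ± 0.06, edgeR adjusted p 2.06e-14). Thus 2 neighbors that fell belong to the pathway of a member, ACKR3 to that of CXCR4 and FZD6 to that of its own neighbor CTHRC1. CXCR4 lies 100.2 Mb from IQCA1, so it is no neighbor of ACKR3. These 2 were not chosen beforehand, and no link is read from them. COX18 beside SLC4A4 changed by -1.12 ± 0.10 (edgeR adjusted p 1.78e-09), at a distance of 1480 kb. PARP8, 223 kb from EMB, changed by -1.11 ± 0.21 (edgeR adjusted p 9.61e-05).

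Other neighbors rose. DARS-AS1, an antisense RNA 91.8 kb from CXCR4, had 3, 2 and 4 counts in parent and 19, 24 and 12 in ADRr libraries (2.50 ± 0.54, edgeR adjusted p 0.000302). ABCC4, a drug and nucleotide exporter 277 kb from DZIP1, changed by 1.10 ± 0.08, LRIG3 beside SLC16A7 by 0.80 ± 0.12, CCDC6 beside ANK3 by 0.58 ± 0.07 and CTSL, a lysosomal cathepsin 16.9 kb from DAPK1, by 0.44 ± 0.05, all called. Both neighbors of SLC16A7 were higher, and no neighbor of SLC16A7, DZIP1 or DAPK1 was called lower. Members with one neighbor called lower and one higher were LZTS1, CXCR4, ANK3 and SUSD5. CRTAP, 2.27 kb from SUSD5, was one of these, with a change of -0.78 ± 0.05.

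Windows of fixed size around the members reuse many of these genes. Of the 32 nearest neighbors, 18 lay within 100 kb of the member and are counted again here, so the windows are no separate evidence. Within 100 kb of 14 members lay 24 tested genes, of which 14 were called lower (58.3%) and 6 higher (25%), with a median log2 fold change of -0.38. Within 1 Mb of all 16 lay 194, of which 68 were called lower (35.1%) and 47 higher (24.2%), with a median of -0.14. The share called lower was nearer to the 29.6% of all tested genes in the wider window. The 2 windows weigh the members differently, so this is not read as an effect of distance. Within 1 Mb, C11orf86, ELOVL3 and TMEM130 had 58, 29 and 27 tested genes, and EMB and SLC16A7 had 1 each. No tested gene on the opposite strand started within 1 kb, or within 5 kb, of a member's start and ran away from it, so no member shared a start region with a tested gene of the other strand. The neighborhood medians over 1 Mb ranged from -1.11 at EMB (1 gene) and -0.57 at SLC4A4 (5 genes) to 0.44 at DZIP1 (6 genes) and 0.80 at SLC16A7 (1 gene).

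**Figure D4:**
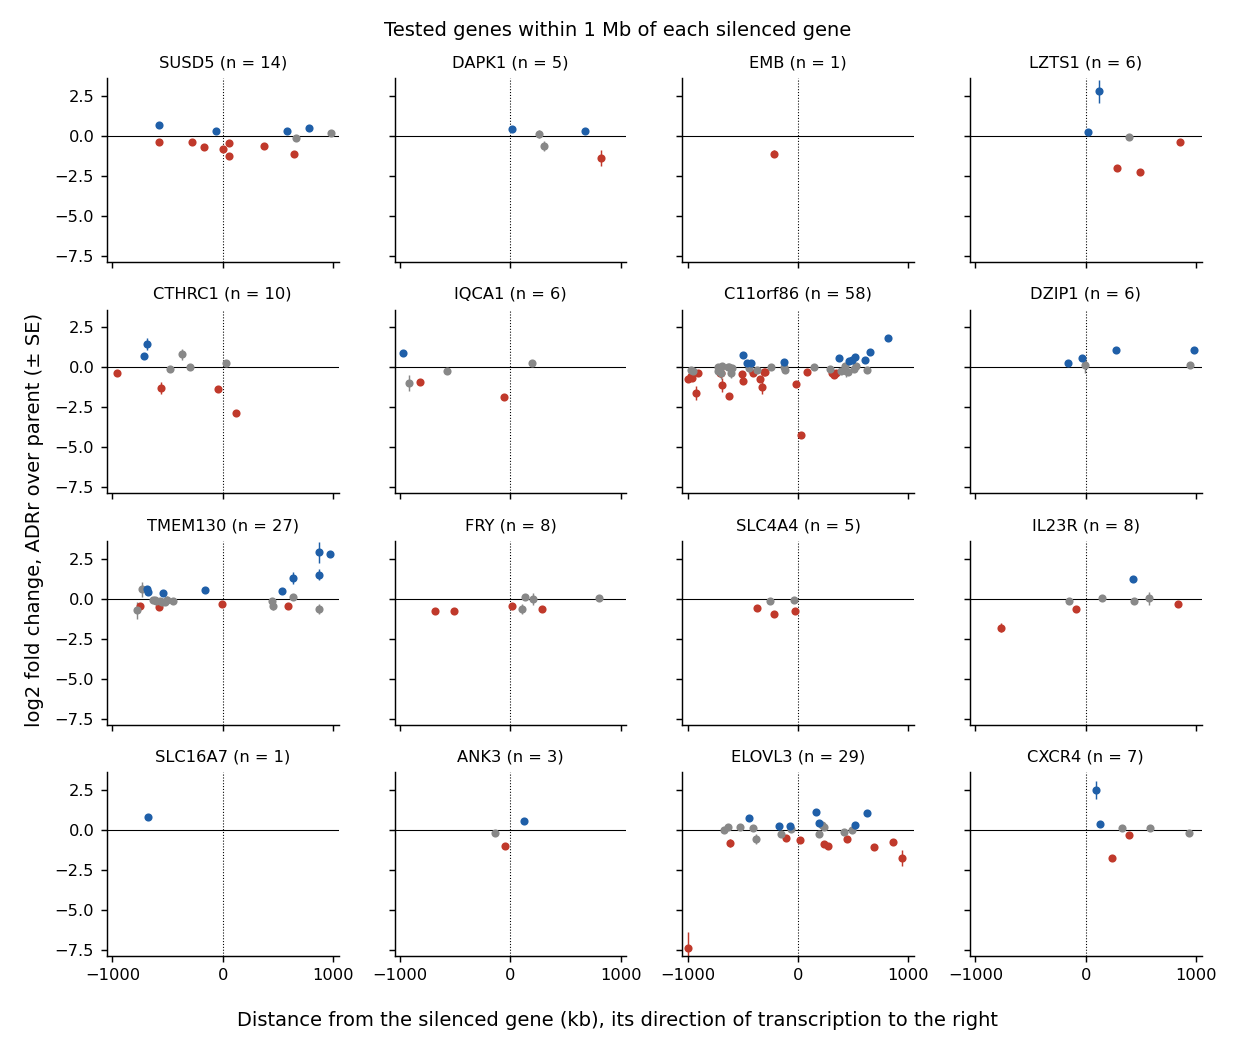
Log2 fold change of tested genes (y axis, ADRr over parent, bars are SE) by their distance from the silenced gene (x axis, kb, with the silenced gene at 0 and its direction of transcription to the right), one panel per silenced gene with the number of tested genes in its title. Red marks genes called lower, blue genes called higher and grey genes not called. Both directions occur around most members, and the lowest points within 100 kb are SYT12 beside C11orf86 (-4.20) and ACKR3 beside IQCA1 (-1.84).

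Among genes that share a name stem with a member (family mates), 7 of 18 tested were called lower (38.9%) and 5 higher (27.8%). Their median was 0.017, and over all tested genes 29.6% were called lower and 29.2% higher. SUSD2 had 81, 71 and 93 counts in parent and 19, 23 and 33 in ADRr libraries (log2 fold change -1.78 ± 0.25, edgeR adjusted p 1.32e-06), and SUSD3 changed by -1.20 ± 0.12. DAPK2, a relative of DAPK1, changed by -0.91 ± 0.14, while DAPK3 changed by -0.32 ± 0.09. The ankyrins divided: ANK1 changed by -1.08 ± 0.11 and ANK2 rose, from 291, 282 and 292 counts to 680, 595 and 642 (1.07 ± 0.09, edgeR adjusted p 1.97e-10). ELOVL6 changed by -0.82 ± 0.06. Mates called higher were, besides ANK2, SUSD4 (0.78 ± 0.29), ELOVL7 (0.62 ± 0.08), SUSD6 (0.48 ± 0.10) and LZTS3 (0.31 ± 0.10).

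The known partners of members were listed once the members were known, so the lists were not chosen independently of these data. Their counts, here and below, are read only as a description, beside 29.6% called lower and 29.2% higher over all tested genes. For the monocarboxylate transporters of EMB and SLC16A7, 2 of 5 tested partners were called lower and 3 higher. SLC16A1, which encodes MCT1, the common carrier of lactate, had 22, 17 and 25 counts in parent libraries and 141, 115 and 141 in ADRr libraries, a log2 fold change of 2.55 ± 0.21 (edgeR adjusted p 3.08e-10). BSG, the chaperone of MCT1 and MCT4, changed by 0.32 ± 0.05 (edgeR adjusted p 1.12e-05). The embigin relative NPTN had 3455, 3429 and 3539 counts against 1883, 1694 and 1841 (-1.02 ± 0.05, edgeR adjusted p 1.36e-13). SLC16A3 (MCT4) had 8732, 7182 and 10350 counts against 6274, 5830 and 5810 (-0.62 ± 0.07). It had by far the most counts of the listed SLC16A genes in both groups. Thus the genes of MCT2 and its chaperone had at most 3 counts per library in the cells in which that of MCT1 was higher. SLC16A8 was also called higher (1.35 ± 0.38).

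Around SLC4A4, 4 of 7 tested genes of bicarbonate and pH control were called higher and 2 lower. SLC4A8, a sodium-driven chloride bicarbonate exchanger, had 8, 12 and 17 counts in parent and 66, 48 and 65 in ADRr libraries (2.19 ± 0.31, edgeR adjusted p 1.63e-06). SLC4A11 changed by 1.72 ± 0.12, CA12 by 0.86 ± 0.13 and SLC4A7 by 0.83 ± 0.07, all called higher. Carbonic anhydrase CA2 had 19, 12 and 17 counts against 2, 0 and 4 (-3.00 ± 0.62, edgeR adjusted p 0.0002), and SLC4A2 changed by -0.85 ± 0.06. SLC4A3 was not called, and SLC4A1, SLC4A5, SLC4A9 and SLC4A10 were too low to be tested.

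For the receptors, few partners could be tested. Of the tested CXCR4 partners, ACKR3 was lower (above) and CD74, a receptor for MIF that can pair with CXCR4, was higher (0.52 ± 0.06, edgeR adjusted p 6.64e-08). CXCL12 was not tested, with 0 counts in parent libraries and 0, 2 and 1 in ADRr libraries. IL23A, the specific subunit of interleukin-23 and thus the ligand of IL23R, had 21, 7 and 11 counts in parent and 142, 147 and 203 in ADRr libraries (3.57 ± 0.26, edgeR adjusted p 4.73e-11). IL12B, the other subunit of interleukin-23, and IL12RB1, the other receptor chain, were too low to be tested, with at most 10 and 11 counts in any library. Of 6 tested genes of this pathway 2 were called lower, STAT4 (-1.31 ± 0.37) and TYK2 (-0.67 ± 0.06), and 2 higher, IL23A and STAT3 (0.46 ± 0.05).

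**Figure D5:**
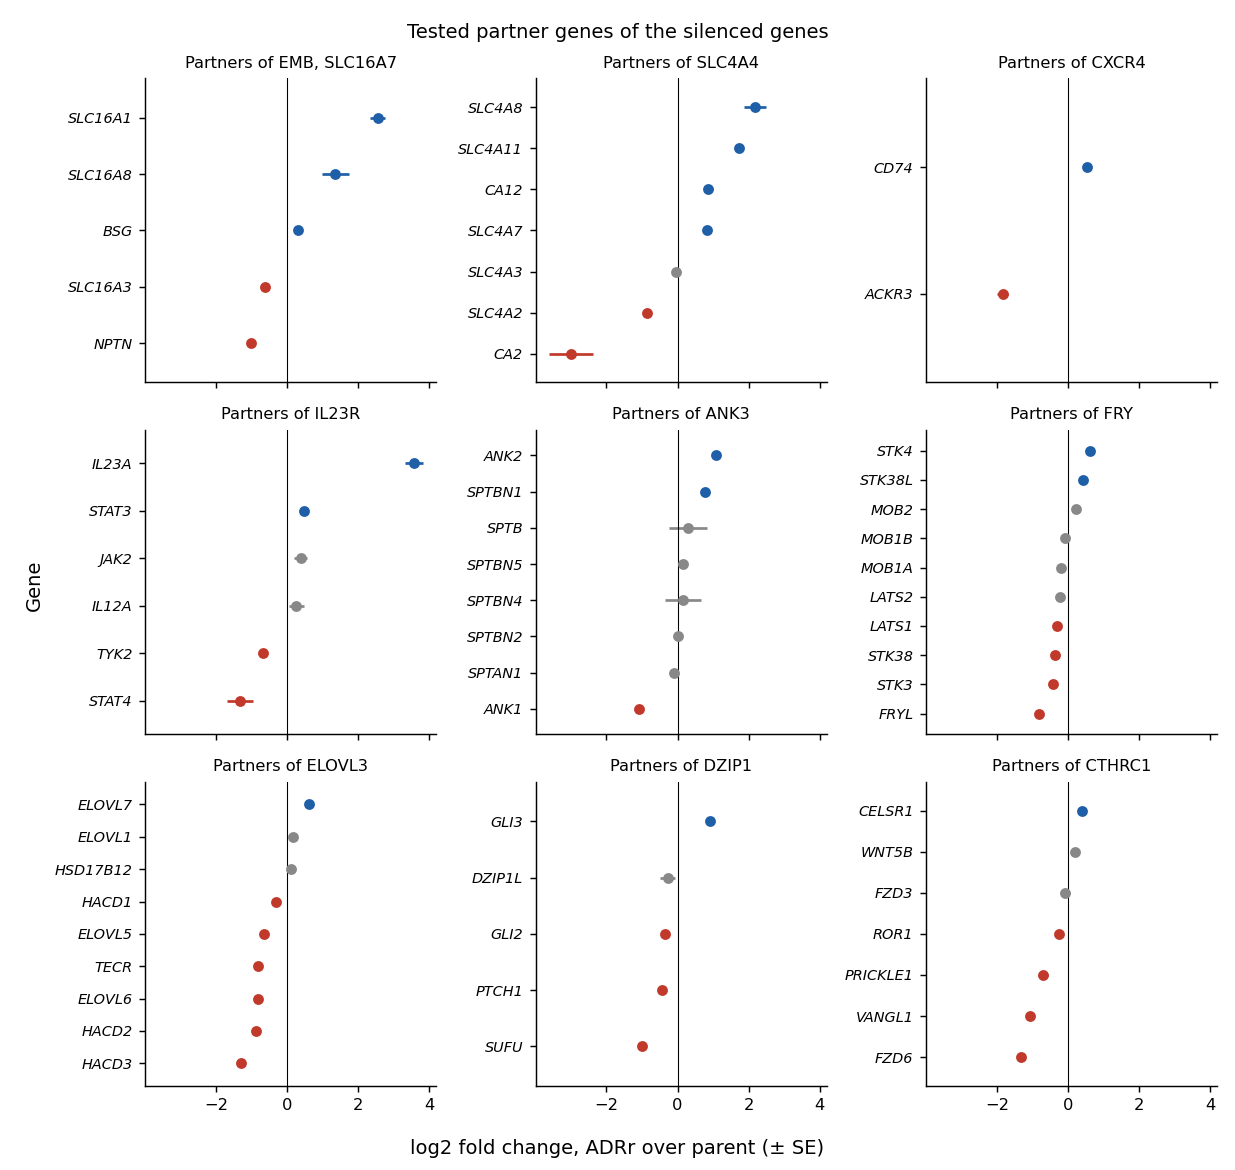
Log2 fold change (x axis, ADRr over parent, bars are SE, n = 3 libraries per group) of tested partner genes of 10 silenced genes, one panel per partner list. Red marks genes called lower, blue genes called higher and grey genes not called. SLC16A1 (2.55) and IL23A (3.57) stand farthest to the right and CA2 (-3.00) farthest to the left.

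Partners of the other members were counted in the same way, again beside 29.6% called lower and 29.2% higher over all tested genes. The lists are short, so no change of a pathway is read from them. Of 9 tested genes of fatty acid elongation, the pathway of ELOVL3, 6 were called lower and 1 higher. HACD3, a dehydratase of the elongation cycle, had 4491, 4403 and 4486 counts in parent and 1940, 1722 and 2053 in ADRr libraries (-1.30 ± 0.05, edgeR adjusted p 1.89e-15), and TECR, the reductase of its last step, changed by -0.81 ± 0.07. Of 5 tested hedgehog and cilium genes around DZIP1, 3 were lower, among them SUFU (-1.01 ± 0.09) and PTCH1 (-0.45 ± 0.09), and GLI3 was higher (0.91 ± 0.10). Of 7 tested genes of planar polarity around CTHRC1, 4 were lower, with FZD6 and VANGL1 (-1.07 ± 0.06) at the head, and CELSR1 was higher. Of 10 tested partners of FRY, 4 were lower, among them its relative FRYL (-0.82 ± 0.07), and 2 higher. Of 8 tested ankyrins and spectrins, 1 was lower and 2 were higher, among them the spectrin SPTBN1 (0.77 ± 0.04).

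Broader lists were counted too, beside 29.6% called lower and 29.2% higher over all tested genes. Of 96 genes known to be methylated in carcinomas, 2 were members, DAPK1 and LZTS1, beside 0.149% of expressed genes that met the rule. The 96 include genes without counts in parent cells, such as CDKN2A, which could not meet the rule, so the 2 shares have unlike bases. The list was also chosen with earlier results of these data known, so nothing is read from these 2 members. Of the 49 others that were tested, 19 were called lower (38.8%) and 12 higher (24.5%), with a median log2 fold change of -0.14. TP73 (-2.73 ± 0.24) and THBS1 (-1.70 ± 0.04) were the lowest of them, and CCND2 (5.11 ± 0.54) and KLF4 (2.56 ± 0.06) the highest, so the list moved in both directions. CDKN2A and CDKN2B, which MDA-MB-231 cells lack through a known deletion, had 0 counts in all 6 libraries.

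No imprinted gene and no germline gene of the lists met the rule, which only 0.149% of expressed genes met. Both lists also hold genes without counts in parent cells, which could not meet it. Of 33 tested imprinted genes, 10 were called lower and 12 higher (median -0.0007), and of 17 tested germline genes 2 were lower and 8 higher (median 0.47). Of 69 tested genes of chromatin silencing, 30 were lower (43.5%) and 19 higher (27.5%), with a median of -0.22. Over all tested genes these shares were 29.6% and 29.2%. UHRF1, which guides DNMT1 to replicated DNA, changed by -1.47 ± 0.06 and the H3K9 methyltransferase EHMT2 by -1.86 ± 0.07. DNMT1, the maintenance methyltransferase, changed by -0.68 ± 0.05 and the PRC2 subunit SUZ12 by -1.12 ± 0.06. TET1, a demethylating enzyme, had 33, 40 and 29 counts in parent and 10, 4 and 6 in ADRr libraries (-2.41 ± 0.40, edgeR adjusted p 1.57e-05), while TET3 changed by 1.27 ± 0.07. Other enzymes that place such marks were called higher, among them DNMT3A (0.33 ± 0.11), SUV39H2 (0.31 ± 0.08) and SETDB2 (1.02 ± 0.14), so the list moved in both directions.

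Around SUSD5, of 11 other tested genes of Link domains and hyaluronan, 4 were called lower and 1 higher (median -0.22). HAS2 changed by -3.33 ± 0.40 (edgeR adjusted p 1.76e-07) and HYAL2 by -1.10 ± 0.10, while CD44, the main hyaluronan receptor, had 14121, 13986 and 14651 counts against 26899, 24262 and 27086 (0.80 ± 0.04, edgeR adjusted p 2.22e-13). Of 19 other tested genes of the DAPK and LZTS families and their partners, 5 were lower and 7 higher (median -0.057). Of 60 tested mesenchymal and matrix genes, none of them a member, 32 were lower (53.3%) and 11 higher (18.3%), with a median of -0.53. Over all tested genes these shares were 29.6% and 29.2%. Of 27 tested chemosensitivity genes 9 were lower and 11 higher (median 0.19), of 13 tested epithelial markers 6 were lower and 5 higher, and of 4 tested leukocyte markers 1 was lower and 2 were higher.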

How the data were processed

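RNA of 3 parent and 3 ADRr libraries had been sequenced by the authors. Per the study's methods, polyadenylated RNA was sequenced as paired-end reads, mapped with HISAT2 and counted with featureCounts. The submitters' processing notes name fastp, HISAT2 2.0.5, featureCounts 1.5.0-p3 and GRCh38. The strand setting is not given in the sources used here. Sample records and methods name different library kits. The deposited tables hold raw counts per gene and FPKM values, which the authors scaled to gene length and library size. All 58735 gene positions were those of GENCODE 29.

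Counts were tested with edgeR 4.0.16 (filterByExpr, TMM, quasi-likelihood test, Benjamini-Hochberg over 15242 genes) in R 4.3.3, with calls requiring adjusted p up to 0.05 together with a change of 1.2-fold or more. DESeq2 1.42.0 and limma 3.58.1 were alternatives, all tested on simulated data first. Normalised counts are scaled by TMM to the mean library. The members and lists were chosen with earlier results of these data known. All members are described. Neighbors and family mates named were the up to 5 with the largest absolute change in each direction, with further ones where a sentence turns on them, and named list and partner genes were chosen after their values were seen. Some partner genes are not reported here. Alternatives concerned normalization, filter, tool, replicate block, left-out libraries, thresholds, distances and the promoter window. At these depths a count of 0 in one library allows up to 3 counts, or 0.164 to 0.188 CPM.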

Additional observations from a re-analysis of the deposited data

How the results depend on the processing

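The number of silenced genes depends on the limits: 1 gene had 0 counts in every ADRr library, 50 had at most 10, 31 met the rule with at least 10 counts in parent libraries and 6 with at least 50. All 16 members were among the 50 and the 31, which follows from the looser limits and says nothing about stability. With counts scaled by TMM, 14 genes met it, without EMB and FRY. Leaving out 1 library gave 17 to 23 genes, and DIO2 and TENM3 entered without ADRr library 1. Leaving out a library only removes a condition, so no member could be lost and the number could not fall. With a log2 change of 1.2 or more in size required, genes called lower numbered 3 of the nearest neighbors, 4 within 100 kb, 2 family mates and 972 over all tested genes. Within 1 Mb, 68 genes were called lower. Leaving out 1 library gave 15 to 16 nearest neighbors, 13 to 14 genes within 100 kb, 6 to 7 family mates and 4375 to 4610 genes overall. With no filter on low counts, 12 of the nearest neighbors (37.5%) were called lower, since other genes of low count became the nearest, beside 16.4% of all genes. The other settings of normalization, filter and tool kept these counts within 1.5 times of those reported, and the count of start sites facing a member stayed 0. The median CpG ratio of the 10 promoter windows was 0.870, and 0.885 before the start. The replicate numbers do not pair the libraries (deviations of same-numbered libraries correlated at 0.0074, -0.021 and -0.046). A replicate block gave 16 nearest neighbors, 14 genes within 100 kb, 7 family mates, 0 facing start sites and 4464 genes. Levels near 20 counts limit the ratios of the lowest members.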

Other observations

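Some genes met the same counts but not the rest of the rule. RPS6KA6, a ribosomal S6 kinase gene on the X chromosome, had 24, 34 and 37 counts in parent libraries and 0 in every ADRr library. SEMA3G, a secreted semaphorin left out by its name, had 50, 36 and 48 counts against 0, 2 and 0. The lincRNA AC103740.2 had 49, 38 and 57 counts against 3, 0 and 3, and the processed transcript C8orf31 had 24, 33 and 30 against 0 in every ADRr library.

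Some genes with parent counts of at least 100 had few ADRr counts without meeting the rule. TENM3, a teneurin of cell contacts, had 1446, 1316 and 1362 counts in parent libraries and 8, 1 and 1 in ADRr libraries. CYP24A1, which degrades active vitamin D, had 203, 194 and 180 against 0, 2 and 7. Within 1 Mb of a member, the homeobox gene LBX1, 997 kb from ELOVL3, had the lowest log2 fold change (-7.36 ± 0.98, edgeR). These genes were chosen after their values were seen.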
